A study of Mus musculus with 18 samples.

Results

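The comparison described here sets the RNA fraction enriched for short poly(A) tails against total RNA in the brains of control mice. It rests on 6 of the 18 arrays of the series, from 3 control mice. The study took cortex and striatum together from mice at 6 weeks of age, 3 labelled TgCPEB4∆4 and 3 labelled CTRL, and made 3 RNA preparations from each mouse: WASH, the RNA released from poly(U)-agarose by 25% formamide and enriched for short tails; ELUTED, the RNA released afterwards by 90% formamide and enriched for long tails; and INPUT, the total RNA before the column. Within each control mouse, the log2 array value in INPUT was subtracted from that in WASH for every probe set, the group of short DNA probes that reports 1 transcript, and the mean of the 3 mice was tested against 0. The sources used here name neither the promoter of the transgene nor the tail lengths of the fractions, and the control mice are known only by their label. Every WASH and INPUT array is a whole-tissue sample from a single mouse.

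Most messenger RNAs end in a poly(A) tail, added in the nucleus after cleavage of the transcript and shortened in the cytoplasm by deadenylases, and poly(U) binds that tail, more firmly the longer it is. Some RNAs carry no such tail. The best known are the mRNAs of the replication-dependent histones, which end in a conserved stem-loop, and ribosomal RNA. In neurons, cytoplasmic polyadenylation by the CPEB proteins lengthens the tails of stored mRNAs.

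Equal masses of amplified material were put on every array, and the values were normalized to a common distribution, so a difference is a change in a transcript's share of its preparation relative to the other transcripts. A shift shared by most transcripts cannot be seen in it. The 6 arrays were close to each other. Over all probe sets the correlation across probe sets was 0.996 to 0.997 among the WASH arrays, 0.991 to 0.995 among the INPUT arrays, and 0.978 to 0.981 between WASH and INPUT of the same mouse. Nonspecific background differed between the preparations: the highest of 23 nonspecific control probe sets stood at 5.43 to 5.99 on the WASH arrays and at 7.07 to 7.52 on the INPUT arrays. It was exceeded by 95.0% to 99.7% of the probe sets kept on the WASH arrays, and by 54.2% to 67.0% on the INPUT arrays. The most GC-rich of these controls was lower by 1.80 ± 0.29 log2 units in WASH (SD, n = 3 mice), and its part in the results below was not tested.

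Of 27022 probe sets kept after dim ones were left out, 9228 (34.1%) were higher and 5510 (20.4%) lower in WASH than in INPUT, at a limma adjusted p under 0.05 for the mean of 3 mice. Few of these differences were large. At least 2-fold differences were called for 269 probe sets (0.995%) higher and 546 (2.02%) lower. With each gene represented by its brightest probe set, 4447 of 11974 genes (37.1%) were higher and 1546 (12.9%) lower, and 85.0% of genes lay within 0.5 log2 units of no change. Only 70 genes (0.585%) were at least 2-fold higher and 35 (0.292%) at least 2-fold lower. The median gene stood at +0.13, and when the dependence of the difference on the level was removed by cyclic loess it stood at +0.03, with 23.4% of genes higher and 17.6% lower. The share of called probe sets that were higher was 62.6% as deposited, 52.5% when the 6 arrays were quantile-normalized again, 49.95% when each mouse's median was subtracted and 49.1% after cyclic loess, so the balance of the directions depends on the scaling.

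**Figure D1:**
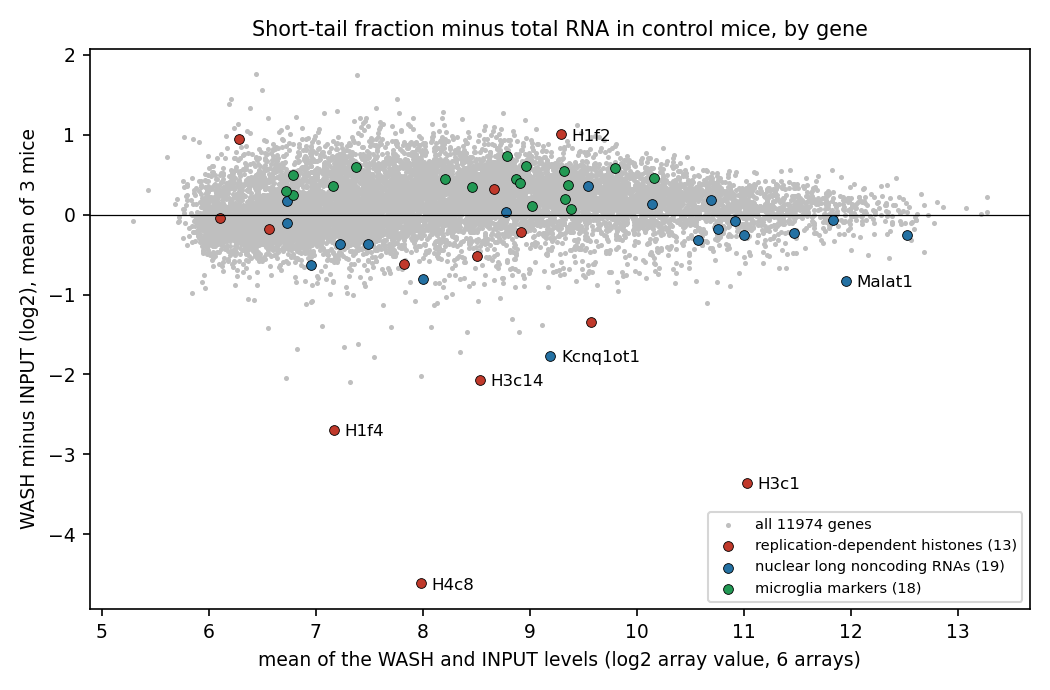
Each grey point is a gene by its mean level over the 6 control arrays (x axis, log2 array value) and its WASH minus INPUT difference (y axis, log2, mean of 3 mice); red, blue and green points mark 3 gene lists. The 4 lowest red points, H4c8, H3c1, H1f4 and H3c14, lie apart from the cloud, H1f2 lies at its upper edge, and all 18 microglia markers lie above 0.

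The largest differences of all were losses of histone mRNAs from the short-tail fraction. H4c8 encodes a core histone H4 and lies on chromosome 13 at 23531044 to 23531478 of GRCm38.p6, a gene of 0.435 kb. Its values were 5.87, 5.55 and 5.61 on the WASH arrays of mice 1, 2 and 3, against 10.39, 10.26 and 10.21 on their INPUT arrays. The groups are far apart in every mouse, and WASH exceeded the nonspecific controls on 1 of 3 arrays, so the transcript was near background there. The difference was −4.61 ± 0.09 log2 units (SD, n = 3; limma adjusted p = 9.81e-09). H3c1, a histone H3 gene, had 9.58, 9.19 and 9.31 in WASH, against 12.70, 12.75 and 12.69 in INPUT. This was among the brightest signals of total RNA, and it was 10.2-fold lower in WASH at a level still well above background in all 3 mice (−3.35 ± 0.22; adjusted p = 3.27e-07). H1f4, a linker histone that binds the DNA between nucleosomes, had 5.81, 5.74 and 5.93 in WASH, against 8.47, 8.54 and 8.54 in INPUT, with WASH above the nonspecific controls on 2 of 3 arrays (−2.69 ± 0.10; adjusted p = 3.28e-07). H3c14, a second H3 gene on chromosome 3, had 7.54, 7.36 and 7.60 in WASH, against 9.68, 9.48 and 9.56 in INPUT. For none of these 4 genes did the WASH and INPUT values overlap. The same was true of 6472 of all 11974 genes (54.1%), so a lack of overlap does not by itself set a gene apart. H2bc22 (−1.35 ± 0.37), H3c4 (−0.62 ± 0.05) and H2bu2 (−0.52 ± 0.25), which encode H2B and H3 histones, were lower by less.

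Of 66 replication-dependent histone genes listed, 18 are on the array by its annotation and 13 were bright enough to test. In WASH 7 of the 13 were lower and 3 higher, and the median was −0.52, beside +0.13 for all genes, of which 12.9% were lower and 37.1% higher. That median was −0.19 when no dim probe set was left out and −0.36 when all probe sets of a gene were averaged. The 3 that were higher are H1f2, H3c15 and H2bc4. H1f2, another linker histone, had 9.83, 9.88 and 9.67 in WASH, against 9.23, 8.58 and 8.55 in INPUT, with no overlap (+1.00 ± 0.36; adjusted p = 0.000214). Its second probe set was higher as well (+0.74 ± 0.09). H3c15 had 6.84, 6.74 and 6.68 in WASH, against 5.90, 5.97 and 5.55 in INPUT, where it exceeded the nonspecific controls on none of the 3 arrays, so no fold is given. H2bc4, an H2B gene, differed by +0.32 ± 0.25 (adjusted p = 0.0234), and this call was lost without mouse 1 (adjusted p = 0.13) and without mouse 3 (adjusted p = 0.0633). H2aw, an H2A gene, had 3 probe sets that disagreed: the brightest stood at −0.22 ± 0.22 and did not pass, while the others were higher by 0.68 ± 0.28 and 0.91 ± 0.22. Histone genes of this cluster are nearly identical in sequence, so signal on one probe set may come from several of them. In differentiated tissues some of these genes are known to give polyadenylated transcripts besides the stem-loop form, and the array does not tell those forms apart.

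H1f4 and H1f2 lie in the same histone cluster, have closely related products and went in opposite directions, so the 150 bases upstream of each start site are shown for comparison. The sequences are those of RefSeq on GRCm38.p6, H1f4 from chr13:23622559-23622708 on the minus strand and H1f2 from chr13:23738657-23738806 on the plus strand, written 5′ to 3′ and ending at the base before the start. Capitals mark 3 motifs searched on both strands, AAACACA (the box named after H1 genes), CCAAT and TATATA, which do not overlap each other here.
H1f4: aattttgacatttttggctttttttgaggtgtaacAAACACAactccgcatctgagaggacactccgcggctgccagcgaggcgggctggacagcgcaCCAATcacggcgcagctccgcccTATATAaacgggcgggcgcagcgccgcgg
H1f2: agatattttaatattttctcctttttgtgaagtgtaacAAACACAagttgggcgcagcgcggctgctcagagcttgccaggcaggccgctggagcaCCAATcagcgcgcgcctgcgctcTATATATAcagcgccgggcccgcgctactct
Both windows hold all 3 motifs in the same order. Among 32851 promoter windows of the same length in the table, AAACACA is found in 3.53%, CCAAT in 24.5% and TATATA in 2.97%, and all 3 together in 17 (0.0517%), which include the linker histone genes H1f2, H1f3, H1f4, H1f5 and H1f6.

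The replacement histones, which are made outside of DNA replication from mostly polyadenylated mRNAs, showed small differences. They are read beside all genes, of which 37.1% were higher and 12.9% lower. Of 9 measured, 2 were higher (H2az2, +0.45 ± 0.18; Macroh2a1, +0.24 ± 0.03, a call lost without any 1 mouse, adjusted p = 0.0565 to 0.115), none was lower, and the median was +0.02, which turned to −0.15 when the arrays were quantile-normalized again and to −0.16 after cyclic loess. H3f3b, which encodes the H3.3 variant, had 10.89, 10.95 and 10.83 in WASH, against 10.84, 10.81 and 10.85 in INPUT, and the groups overlap (+0.06 ± 0.08; adjusted p = 0.58). H3f3a stood at −0.07 ± 0.01 (adjusted p = 0.49). The sign of H3f3b turned negative under 4 other scalings, none of which made it a call.

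**Figure D2:**
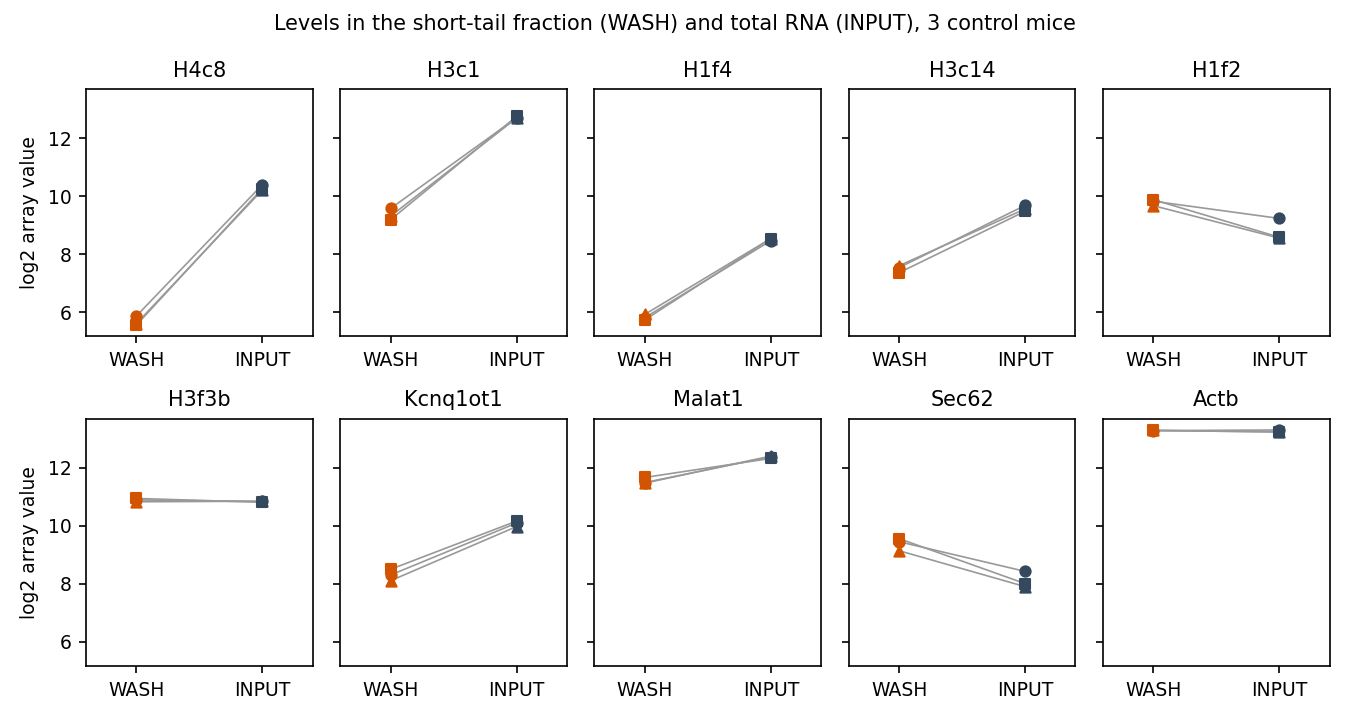
Each panel gives the log2 array value of a gene in the short-tail fraction (WASH, orange, left) and in total RNA (INPUT, blue-grey, right), with a line joining the preparations of each control mouse (circle, square and triangle for mice 1, 2 and 3). The lines climb steeply to INPUT for H4c8, H3c1, H1f4, H3c14 and Kcnq1ot1, fall for H1f2 and Sec62, and are flat for H3f3b and Actb.

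Ribosomal RNA, which carries no poly(A) tail, is read by 3 control probe sets for 18S rRNA near the top of the scale. They had 12.25 to 13.28 in WASH, against 12.76 to 13.45 in INPUT, a difference of −0.18 ± 0.03, −0.54 ± 0.09 and −0.66 ± 0.07 (SD, n = 3). All 3 were lower in every mouse, at values near the highest on the arrays (13.6), so the size of these differences is not set against other probes. Probes for B2 repeats, short interspersed elements found in many transcripts, differed by −0.35 ± 0.11 and −0.56 ± 0.02, and a B1 repeat probe by −0.32 ± 0.17. Of 10 housekeeping genes, 5 (50%) were higher and 0 lower, beside 37.1% and 12.9% of all genes. Their median was +0.16, and Actb and Gapdh did not pass the test. Actb, cytoplasmic beta-actin, had 13.28, 13.29 and 13.29 in WASH, against 13.30, 13.24 and 13.24 in INPUT, and Gapdh, a glycolytic enzyme, had 13.21, 13.18 and 13.28, against 13.21, 13.22 and 13.21. Their differences of +0.03 and +0.01 became negative under some other scalings. The control probes along the beta-actin transcript gave +0.20 ± 0.03 near its 3′ end, 0.00 ± 0.03 in the middle and −0.14 ± 0.03 near its 5′ end. For the enzyme these positions gave −0.07 ± 0.07, −0.02 ± 0.06 and −0.09 ± 0.05. A slope along the transcript was thus seen for beta-actin and not for the enzyme, and its part in other results was not tested.

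Long noncoding RNAs listed as staying in the nucleus or as antisense to genes were mostly lower as well. The part of nuclear retention was not tested. Of 19 measured, 10 (52.6%) were lower and 1 (5.26%) higher in WASH, beside 12.9% and 37.1% of all genes. The median was −0.24. It was −0.17 when no dim probe set was left out and when all probe sets of a gene were averaged. It was −0.33 with arrays scaled to the same SD, and −0.31 after cyclic loess or with each mouse's median subtracted. Kcnq1ot1, an antisense transcript that silences imprinted genes from chromosome 7, had 8.31, 8.50 and 8.11 in WASH, against 10.10, 10.16 and 9.98 in INPUT, and was 3.41-fold lower (−1.77 ± 0.10; adjusted p = 2.22e-06). All 4 of its probe sets were lower, by 1.41 to 1.77 log2 units. Malat1, which accumulates in nuclear speckles and whose end is not polyadenylated in the usual way, had 11.49, 11.67 and 11.47 in WASH, against 12.38, 12.33 and 12.40 in INPUT (−0.83 ± 0.15; adjusted p = 9.36e-05). Neither pair of groups overlaps. Jpx, a noncoding gene near Xist, stood at −0.80 ± 0.23. Pantr1, the exception, was higher by 0.36 ± 0.12, a call lost when the 6 arrays were quantile-normalized again (adjusted p = 0.0697) and without mouse 3 (adjusted p = 0.0514).

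Within a noncoding gene the probe sets did not always agree, and Rian and Meg3 are named here after their values were seen. Rian, a noncoding transcript that hosts small nucleolar RNAs at an imprinted locus, had 1 probe set at 7.08, 6.95 and 6.59 in WASH, against 8.82, 8.67 and 8.48 in INPUT (−1.78 ± 0.09). A brighter probe set of Rian had 10.95 to 11.07 in WASH, against 10.88 to 11.04 in INPUT, and did not differ by the test (+0.05 ± 0.04; adjusted p = 0.644). The groups are apart on the first probe set and overlap on the second. Of the 4 Rian probe sets kept, 3 were called lower and 0 higher. Of 10 probe sets for Meg3, from the same imprinted locus, 7 were lower and 1 was higher, between −0.41 and +0.64. The files do not state which part of each transcript a probe set covers.

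The direction of the calls moved with the annotation class of the probe set. Among 558 probe sets for long noncoding RNAs, 223 were lower and 53 higher, and among 7468 with no gene entry, 37.4% were lower and 24.6% higher. Among 18465 for protein-coding genes, 12.9% were lower and 38.7% higher. Since the dim side of a difference can lie in background, the same shares were taken over probe sets above the nonspecific controls on all 6 arrays, where 45.9% of noncoding, 29.9% of unnamed and 11.3% of protein-coding probe sets were lower and 12.1%, 31.5% and 40.7% higher. Lower calls thus no longer outnumbered higher calls among unnamed probe sets in that subset. Their share of 29.9% lower still exceeded the 16.2% of all probe sets there, as 37.4% exceeded the 20.4% of all probe sets kept. Of the 546 probe sets at least 2-fold lower, 456 (83.5%) have no gene entry, and 371 were above the nonspecific controls on all 3 WASH arrays. The 269 at least 2-fold higher include 94 with no entry, and 43 were above those controls on all 3 INPUT arrays. By these controls, most of the larger gains started from transcripts dim in total RNA. Most of the larger losses stood above the controls in WASH. The highest control was at 7.07 to 7.52 on INPUT and 5.43 to 5.99 on WASH arrays. The counts thus rest on unlike cutoffs and cannot be compared with each other.

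**Figure D3:**
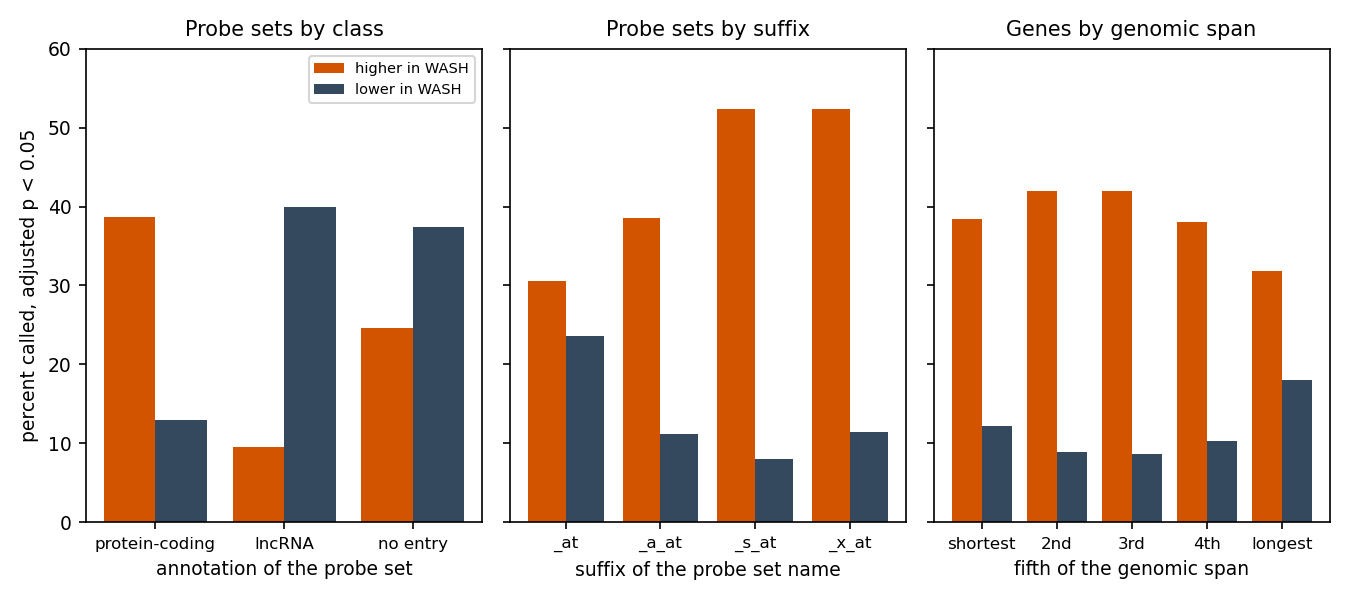
Bars give the percent of probe sets (left and middle panels) or genes (right panel) called higher (orange) or lower (blue-grey) in WASH than in INPUT at adjusted p under 0.05, by annotation class, by the suffix of the probe set name, and by genomic span in 5 groups of like size. Lower calls outnumber higher calls only for long noncoding RNAs and for probe sets with no entry.

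Probe sets also differed by their design. The suffix _s_at or _x_at marks probe sets with probes shared between transcripts, _a_at marks those shared by transcripts of a gene, and _at alone marks those made to be unique. Of 1538 _x_at and 1575 _s_at probe sets, 52.3% each were higher and 11.4% and 8.00% lower. Of 20346 plain _at probe sets, 30.6% were higher and 23.6% lower, a median of +0.04, beside +0.26 for _x_at and +0.26 for _s_at. The design also moves with class and level, and its own part was not tested.

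Genes were also divided into 5 groups of like size by the length of genome they span. In the group with the longest spans, from 74.8 kb upward, 410 of 2281 genes were lower and 725 higher, against 198 to 279 lower and 867 to 958 higher in each of the other groups. Their median was +0.08, beside +0.14 to +0.17 elsewhere, and this difference between groups was not tested.

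Outside the histones the largest losses of single genes were smaller than those of H4c8, H3c1 and H1f4, but of the size of that of H3c14. Nlgn1, which encodes a postsynaptic adhesion protein and spans 911 kb of chromosome 3, had 6.18, 6.47 and 6.17 in WASH, against 8.74, 8.43 and 7.94 in INPUT (−2.10 ± 0.41; adjusted p = 7.58e-06). The groups do not overlap, although the INPUT values differ between mice. Csmd3, a large transmembrane protein of the brain, was lower by 2.02 ± 0.16 on its brighter probe set, while the other stood at +0.01 ± 0.10. Lrtm1 (−1.78 ± 0.31), Mab21l1 (−1.66 ± 0.03) and Tma16 (−1.61 ± 0.12) were lower, as were the noncoding genes 4931430N09Rik (−2.05 ± 0.13) and 9530059O14Rik (−1.72 ± 0.10). With 4 histone genes and Kcnq1ot1, these 7 make up the 12 largest losses by gene, and all 12 were lower in the TgCPEB4∆4 mice too.

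Where a gene had more than 1 probe set, these could disagree. Among 4622 such genes, 538 (11.6%) had 1 probe set called higher and another called lower. Examples, named after the values were seen, are Tnik, Herc4 and Shisa9. For Tnik, a kinase of the postsynaptic density with 4 probe sets, 1 had 7.83, 7.83 and 7.43 in WASH, against 7.57, 7.25 and 6.81 in INPUT (+0.49 ± 0.20). Another had 7.96, 7.79 and 7.16 in WASH, against 9.86, 9.50 and 9.17 in INPUT (−1.87 ± 0.15). For Herc4, a ubiquitin ligase, the pair stood at +0.75 ± 0.31 and −1.41 ± 0.19. For Shisa9, an auxiliary protein of AMPA receptors, 1 probe set was lower by 0.68 ± 0.09, and the one called higher lay below the nonspecific controls on all 3 INPUT arrays. A difference given for a gene is therefore that of the stretch its probe set covers.

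Of the 12 genes ranked highest by their gain, 9 lay below the nonspecific controls on all 3 INPUT arrays, so their order is not a measured one. For those the fold is a lower limit, the mean WASH value over the mean of the highest nonspecific control on the INPUT arrays. Sumf1, which activates sulfatases, had 8.30, 8.41 and 8.06 in WASH, against 6.98, 6.44 and 6.10 in INPUT, at least 1.98-fold higher (adjusted p = 1.31e-05). Tmx1, a thioredoxin-like protein of the endoplasmic reticulum, was at least 1.95-fold higher, Qrsl1, which charges a mitochondrial tRNA, at least 1.49-fold, Tfr2, a transferrin receptor, at least 1.36-fold, and Prss23, a serine protease, at least 1.03-fold. Arxes1 was at least 1.01-fold higher, and for Tm7sf3, Abi1 and Lyz2 the limit was under 1, so no fold is given. Sec62, part of the machinery that moves proteins into the endoplasmic reticulum, was the only one of the 12 above those controls on all 6 arrays, at 9.45, 9.56 and 9.14 in WASH, against 8.43, 8.01 and 7.91 in INPUT (+1.27 ± 0.26, 2.41-fold; adjusted p = 2.76e-05). Even so, a second Sec62 probe set was lower by 0.48 ± 0.23. Cryz (+1.45 ± 0.18) and Mrps24 (+1.28 ± 0.15), a quinone reductase and a mitochondrial ribosomal protein, were above the controls on 1 and 2 of the INPUT arrays. Their other probe sets were higher by 0.50 ± 0.17 and 0.47 ± 0.21. The other Tfr2 probe set did not differ by the test (+0.13 ± 0.17; adjusted p = 0.26). Of the 12 genes, 9 were read by _x_at or _s_at probe sets, designs of which 52.3% each were higher. The part of the design in these gains was not tested.

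Lists of energy metabolism and protein turnover are read beside all genes, of which 37.1% were higher and 12.9% lower. Of 71 nuclear-encoded subunits of the respiratory chain, 31 (43.7%) were higher and 0 lower, with a median of +0.16, near the +0.13 of all genes. Sdhc, a subunit of succinate dehydrogenase, had 8.92, 9.07 and 8.98 in WASH, against 7.96, 8.56 and 8.23 in INPUT (+0.74 ± 0.23). Ndufb5, a subunit of complex I, was higher by 0.71 ± 0.24. Of 73 mitochondrial ribosomal proteins, 39 (53.4%) were higher and 1 lower, with a median of +0.24. Mrps22 was higher by 0.65 ± 0.12, and Mrpl1 was lower by 0.26 ± 0.13, a call lost without mouse 2 or mouse 3 (adjusted p = 0.0846 and 0.224). Of 30 proteasome subunits, 17 (56.7%) were higher and 0 lower, with a median of +0.26. Psmd6 had 10.17, 10.01 and 10.10 in WASH, against 9.62, 9.38 and 9.13 in INPUT (+0.72 ± 0.23), and Psmd13 was higher by 0.51 ± 0.15. Both are parts of the proteasome lid. Of 37 translation factors, 19 were higher and 1 lower. Eif2b4, a subunit of the exchange factor for eIF2, was higher by 0.89 ± 0.14. After cyclic loess 15 respiratory, 17 mitochondrial ribosomal, 8 proteasome and 9 translation factor genes were higher, 21.1%, 23.3%, 26.7% and 24.3% of these lists, beside 23.4% of all genes, and 4, 4, 1 and 3 were lower.

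Proteins of the cytosolic ribosome were measured too. Of 69, 20 (29.0%) were higher and 4 (5.80%) lower, beside 37.1% and 12.9% of all genes. Their median of +0.11 turned to −0.02 when the arrays were scaled to the same SD or after cyclic loess. Rpl22 was higher by 0.76 ± 0.14 and Rps27l by 0.71 ± 0.13. Rpl32 had 9.65, 9.13 and 9.42 in WASH, against 9.68, 9.71 and 9.80 in INPUT (−0.33 ± 0.28), and it, Rps28 and Rpl23a lost their calls without mouse 2 (adjusted p = 0.168 to 0.194), Rpl32 and Rpl23a also without mouse 3 (adjusted p = 0.0641 and 0.0513). The mouse medians of the list were 0.21, −0.04 and 0.13. The sign of the median thus differed between mice.

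**Figure D4:**
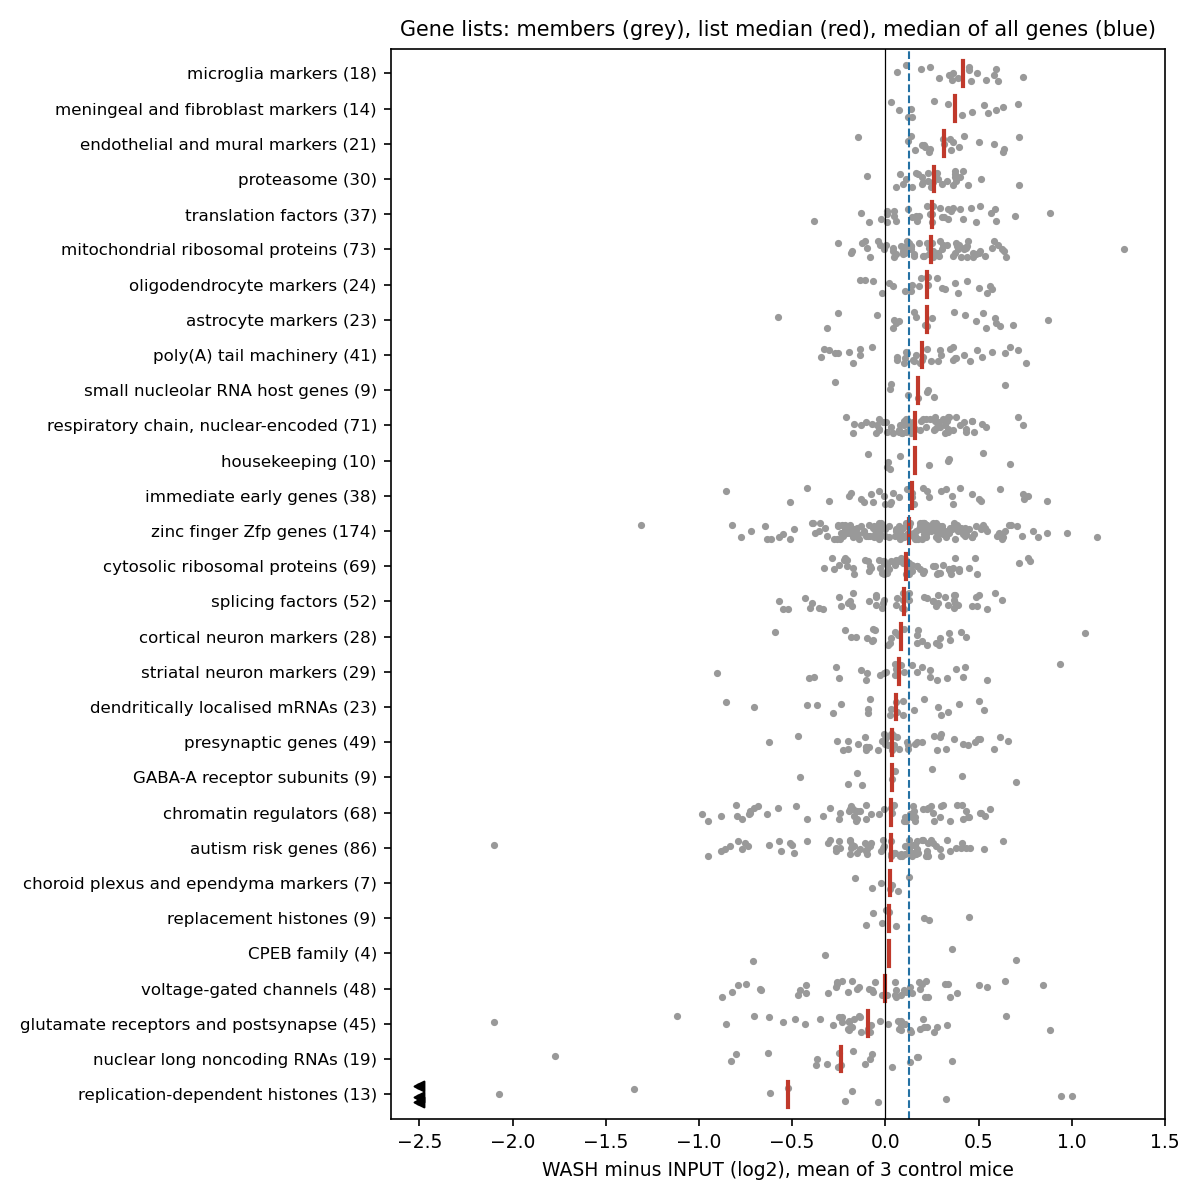
Each row is a gene list with its number of measured genes; grey points are members by their WASH minus INPUT difference (x axis, log2, mean of 3 control mice), red bars list medians, and the dashed blue line the median of all genes, +0.13. Arrowheads at the left edge stand for the 3 histones below the axis limit; microglia markers lie at the top (median +0.42) and replication-dependent histones at the bottom (−0.52).

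Genes of the synapse and of excitability went both ways. Of 45 glutamate receptors and postsynaptic scaffolds, 13 (28.9%) were lower and 6 higher, with a median of −0.10, against 12.9% lower and 37.1% higher of all genes. Homer1, a scaffold of metabotropic glutamate receptors, had 9.99, 10.004 and 9.79 in WASH, against 10.79, 10.87 and 10.68 in INPUT (−0.85 ± 0.05; adjusted p = 4.72e-05). Grin2a, a subunit of NMDA receptors, was lower by 1.12 ± 0.20, and Shank1, a master scaffold of the postsynaptic density, by 0.70 ± 0.11. In the other direction, Lrrtm1, a synaptic adhesion protein, was higher by 0.89 ± 0.34 and Grm7, a metabotropic glutamate receptor, by 0.65 ± 0.34. Of 48 voltage-gated channel genes, 15 (31.2%) were lower and 10 higher. Kcnh7, a potassium channel, had 8.20, 8.17 and 8.04 in WASH, against 9.04, 9.08 and 8.92 in INPUT (−0.87 ± 0.03). Kcnj6, a G-protein-gated potassium channel (−0.82 ± 0.17), and Cacna1e, a calcium channel (−0.79 ± 0.06), were lower too, while the sodium channel Scn3a was higher by 0.85 ± 0.19 and the potassium channel Kcnc2 by 0.64 ± 0.13. After cyclic loess 23 of the postsynaptic and 22 of the channel genes were lower and 2 and 5 higher, beside 17.6% of all genes lower.

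Of 49 presynaptic genes, 14 (28.6%) were higher and 4 (8.16%) lower, both shares below the 37.1% and 12.9% of all genes. Bsn, a scaffold of the active zone, was lower by 0.62 ± 0.13 and Rab3c, a small GTPase of vesicles, by 0.47 ± 0.07, while Synpr, a vesicle membrane protein, was higher by 0.66 ± 0.29 and Slc17a6, a vesicular glutamate transporter, by 0.62 ± 0.21. After scaling to the same SD or cyclic loess 9 were higher and 10 lower, so their balance depends on the scaling. Of 9 genes of GABA-A receptors, 8 subunits and the scaffold gephyrin, 3 were higher and 1 lower (3 and 4 after cyclic loess). Gabrd (+0.70 ± 0.08) and Gabra5 (+0.41 ± 0.12), subunits of receptors outside the synapse, and Gphn, which encodes gephyrin (+0.25 ± 0.16, lost without mouse 2 or mouse 3, adjusted p = 0.0916 and 0.292), were higher, and Gabrg3 (−0.46 ± 0.06) was lower. Among 23 mRNAs known to be carried into dendrites, 6 were higher and 6 lower, and 1 and 8 after cyclic loess. Fmr1, whose product represses translation at synapses, was higher by 0.53 ± 0.42, with an adjusted p of 0.0091 that was 0.0747 without mouse 2.

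Immediate early genes, which neuronal activity switches on within minutes, were higher in 14 of 38 cases and lower in 4 (9 and 5 after cyclic loess), which is 36.8% and 10.5%, near the 37.1% and 12.9% of all genes. Dusp6, a phosphatase of ERK, had 8.62, 8.49 and 8.13 in WASH, against 7.79, 7.60 and 7.24 in INPUT, higher by nearly the same amount in each mouse (+0.87 ± 0.03; adjusted p = 4.28e-05). Egr2 (+0.77 ± 0.42) and Fosl2 (+0.75 ± 0.25), both transcription factors, were higher. Arc, which acts on AMPA receptor traffic and whose mRNA goes to dendrites, had 9.43, 9.07 and 9.10 in WASH, against 9.88, 9.65 and 9.34 in INPUT. It was lower within each mouse by 0.42 ± 0.18 (adjusted p = 0.00396), although the groups overlap between mice. Nr4a3, an orphan nuclear receptor, was lower by 0.51 ± 0.13.

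Of 68 chromatin regulators, 19 (27.9%) were lower and 18 (26.5%) higher, beside 12.9% and 37.1% of all genes. After cyclic loess 31 (45.6%) were lower and 13 (19.1%) higher, beside 17.6% and 23.4% of all genes. Kmt2c, a histone methyltransferase, had 9.26, 9.46 and 9.32 in WASH, against 10.26, 10.34 and 10.29 in INPUT (−0.95 ± 0.06; adjusted p = 2.85e-05). Zmynd8, a reader of chromatin marks, was lower by 0.88 ± 0.27, and Asxl1, a Polycomb-associated protein, was higher by 0.56 ± 0.29. Splicing factors were higher in 20 of 52 cases (38.5%) and lower in 10 (19.2%), beside 37.1% and 12.9% of all genes. Many of these factors make transcripts with retained introns that stay in the nucleus. Srrm2 (−0.57 ± 0.06), Hnrnpab (−0.55 ± 0.09) and Mbnl1 (−0.52 ± 0.04) were lower, and Hnrnpdl (+0.63 ± 0.17) and Srsf6 (+0.59 ± 0.27) higher. Cyclic loess turned the split of the splicing factors to 7 (13.5%) higher and 17 (32.7%) lower, beside 23.4% and 17.6% of all genes. The 174 zinc finger genes of the Zfp series held 54 (31.0%) higher and 23 (13.2%) lower, beside 37.1% and 12.9% of all genes, between Zfp644 at −1.31 ± 0.18, whose other probe set was higher by 0.50 ± 0.17, and Zfp180 at +1.14 ± 0.03, with a median of +0.13.

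Of 86 genes linked to autism, 22 (25.6%) were lower and 15 (17.4%) higher, beside 12.9% and 37.1% of all genes. Their median was +0.03, beside +0.13. The list shares members with those of the synapse and of chromatin, Nlgn1, Kmt2c and Zmynd8 among them, so it is no separate evidence. Its split was 35 (40.7%) lower and 5 (5.81%) higher after cyclic loess, beside 17.6% and 23.4% of all genes.

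Markers of several non-neuronal cell types were mostly higher in the short-tail fraction. In bulk tissue, fewer cells of a type and less RNA per cell cannot be told apart; here both preparations come from the same mice. Of 100 genes in 5 such lists, which leave out choroid plexus and ependyma, 62 were higher and 3 lower, with a median of +0.31, beside 37.1% higher and 12.9% lower of all genes. Of 18 microglia markers, 15 (83.3%) were higher and 0 lower, and all 18 differences were above 0. C1qa, a chain of the complement factor C1q, had 9.24, 9.11 and 9.11 in WASH, against 8.38, 8.61 and 8.26 in INPUT (+0.74 ± 0.21; adjusted p = 0.000263). Tyrobp, a signalling adaptor of microglial receptors, had 9.40, 9.14 and 9.28 in WASH, against 8.66, 8.60 and 8.73 in INPUT (+0.61 ± 0.11). The groups do not overlap for either gene. The linear values of the 18 markers summed to 9473 to 9859 on the WASH arrays and to 6938 to 7485 on the INPUT arrays. The count higher was 12 to 15 under the other scalings, with 0 lower in each.

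Endothelial and mural markers were higher in 14 of 21 cases (66.7%) and meningeal and fibroblast markers in 9 of 14 (64.3%), with 0 lower in either list. Cldn5, which seals the blood-brain barrier, had 8.30, 8.26 and 8.27 in WASH, against 7.33, 7.81 and 7.79 in INPUT (+0.63 ± 0.29). Ly6c1, a surface protein of brain endothelium, was higher by 0.63 ± 0.13 and the collagen gene Col3a1 by 0.63 ± 0.24. Cyclic loess left 7 of the endothelial (33.3%) and 7 of the meningeal genes (50%) higher, beside 23.4% of all genes. Only 6 of the 14 meningeal genes were above the nonspecific controls on all 6 arrays. With probe sets limited in that way, the meningeal median fell from +0.37 to +0.14, beside +0.17 for all genes. The meningeal gains thus rest largely on genes dim in INPUT. Astrocyte markers were divided, with 13 higher and 3 lower of 23. Aldh1l1, an enzyme of folate metabolism, was higher by 0.87 ± 0.16, and Sox9, a transcription factor, by 0.62 ± 0.10. Slc1a2, the main glutamate transporter of astrocytes, had 12.39, 12.44 and 12.39 in WASH, against 12.71, 12.75 and 12.70 in INPUT (−0.31 ± 0.01; adjusted p = 0.00814). Of 24 oligodendrocyte markers, 11 (45.8%) were higher, among them the myelin protein gene Mog (+0.54 ± 0.14), and 0 lower. After cyclic loess 6 (25.0%) were higher, near the 23.4% of all genes, and 2 (8.33%) lower, beside 17.6%. None of 7 markers of choroid plexus and ependyma passed the test.

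Neuronal markers went both ways. Of 29 striatal markers 7 (24.1%) were higher and 5 (17.2%) lower. Of 28 cortical markers 9 (32.1%) were higher and 2 (7.14%) lower, beside 37.1% and 12.9% of all genes. Their medians of +0.07 and +0.09 turned to −0.026 and −0.035 after cyclic loess. In that setting 3 striatal (10.3%) and 4 cortical (14.3%) markers were higher, and 7 (24.1%) and 6 (21.4%) lower. Of all genes 23.4% were then higher and 17.6% lower. Vip, a peptide of cortical interneurons, had 9.40, 9.17 and 9.24 in WASH, against 8.33, 8.27 and 7.99 in INPUT (+1.07 ± 0.18, 2.10-fold; adjusted p = 3.11e-05). Tac1, the precursor of substance P in striatal neurons, had 9.18, 9.32 and 9.36 in WASH, against 8.38, 8.47 and 8.20 in INPUT (+0.94 ± 0.19). In the other direction, Rgs9, which ends dopamine signalling in striatal neurons, had 8.81, 8.68 and 8.68 in WASH, against 9.63, 9.65 and 9.60 in INPUT (−0.90 ± 0.07), and Rorb, a transcription factor of cortical layer neurons, was lower by 0.59 ± 0.16.

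The CPEB family, which binds the cytoplasmic polyadenylation element in 3′ ends, was split. Cpeb3 had 8.52, 8.57 and 8.51 in WASH, against 9.28, 9.31 and 9.14 in INPUT (−0.71 ± 0.07; adjusted p = 0.000129), but its other probe set stood at +0.05 ± 0.20. Cpeb4, the gene altered in the transgenic line, had 7.97, 8.06 and 8.11 in WASH, against 8.44, 8.36 and 8.30 in INPUT (−0.32 ± 0.14; adjusted p = 0.0115). Its other probe set went the opposite way, with 8.42, 8.46 and 8.22 in WASH, against 7.94, 7.49 and 6.99 in INPUT (+0.90 ± 0.39; adjusted p = 0.000477). No single direction can be given for Cpeb4. Cpeb2 was called higher, but its INPUT values lay below the nonspecific controls on all 3 arrays, so no size is given, and Cpeb1 was higher by 0.36 ± 0.33, a call lost without mouse 3 (adjusted p = 0.256), and the first Cpeb4 call was lost without mouse 1 (adjusted p = 0.0595). Of 41 genes that make, bind or remove poly(A) tails, 18 (43.9%) were higher and 4 (9.76%) lower, beside 37.1% and 12.9% of all genes, and 11 and 8 after cyclic loess, when 23.4% and 17.6% of all genes were. Fip1l1, of the cleavage and polyadenylation complex (+0.75 ± 0.12), Cnot7, a deadenylase (+0.71 ± 0.21), and Zfp36l1, which recruits deadenylases (+0.67 ± 0.29), were higher. Pcf11, a termination factor (−0.34 ± 0.16), Cnot6l, a deadenylase (−0.33 ± 0.05), and Papola, the nuclear poly(A) polymerase (−0.30 ± 0.07), were lower, and the calls of Pcf11 and Papola were lost without mouse 2 (adjusted p = 0.0761 and 0.0524).

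The same comparison in 3 TgCPEB4∆4 mice uses no array of the controls. There 7961 probe sets (29.5%) were higher and 4676 (17.3%) lower in WASH than in INPUT. Of the probe sets called higher, 6749 were shared, 84.8% of those in TgCPEB4∆4 mice and 73.1% of those in controls, and 4044 were shared among the lower ones, 86.5% and 73.4%. None called in controls was called the other way in TgCPEB4∆4 mice. Of those called in controls, 98.9% of the higher and 98.3% of the lower ones had the same sign in TgCPEB4∆4 mice, and across 27022 probe sets the mean differences had a correlation of 0.93, a description over probe sets that are not independent. H4c8 stood at −4.30 ± 0.17 in TgCPEB4∆4 mice, beside −4.61 ± 0.09 in controls, H3c1 at −3.25 ± 0.06, beside −3.35 ± 0.22, and Kcnq1ot1 at −1.53 ± 0.11, beside −1.77 ± 0.10. H1f2 was higher in both, by 0.69 ± 0.15 in TgCPEB4∆4 mice, beside 1.00 ± 0.36.

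**Figure D5:**
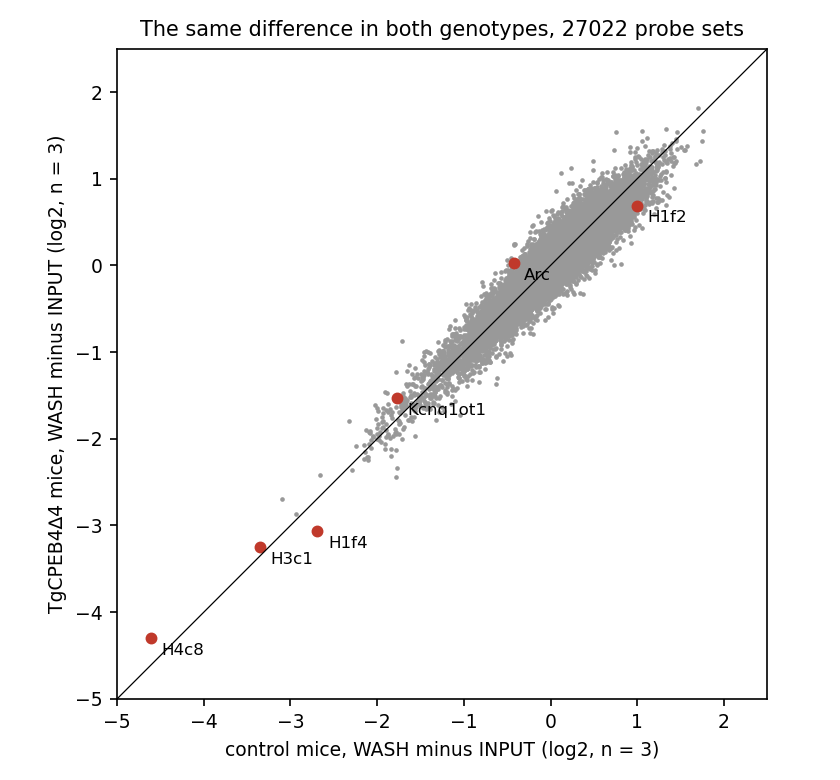
Each point is a probe set by its WASH minus INPUT difference in TgCPEB4∆4 mice (y axis) and in control mice (x axis), log2, means of 3 mice each, with the line of equality; red points are 6 named genes. The points follow the line from H4c8 at −4.30 and −4.61 to H1f2 at 0.69 and 1.00, with Arc off it at 0.02 and −0.42.

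Tested directly, the genotypes differed in 0 of 27022 probe sets by limma (lowest adjusted p = 0.855), with 1437 at an unadjusted p under 0.05, of which 770 were higher and 667 lower in TgCPEB4∆4 mice. Arc stood at +0.02 ± 0.04 in TgCPEB4∆4 mice, beside −0.42 ± 0.18 in controls. That difference did not pass the test, which does not show that the genotypes are alike.

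The long-tail fraction of the same control mice, ELUTED, was set against the same INPUT arrays and so shares them with the comparison above. Its arrays were more uneven: the correlation of WASH with ELUTED across probe sets was 0.860 in mouse 1, 0.966 in mouse 2 and 0.931 in mouse 3. The spread over genes of the direct difference WASH minus ELUTED was 0.78 log2 units (SD), against 0.34 for WASH minus INPUT. H3c1 had 9.11, 8.87 and 8.57 in ELUTED and stood at −3.35 in WASH and −3.86 in ELUTED relative to INPUT. H4c8 had 4.82, 5.40 and 5.00 in ELUTED, below the nonspecific controls on all 3 arrays, so no difference is given. H1f2, higher in WASH, stood at −1.81 ± 1.57 in ELUTED relative to INPUT (−0.97 without mouse 1). Kcnq1ot1 differed, with 10.50, 9.93 and 9.99 in ELUTED, near its INPUT level (+0.06 ± 0.32 relative to INPUT, −0.12 without mouse 1), beside −1.77 ± 0.10 in WASH.

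Respiratory chain subunits had a median of +0.16 in WASH and −1.83 in ELUTED relative to INPUT (−1.64 without mouse 1), and 70 of 71 were higher in WASH than in ELUTED. Cytosolic ribosomal proteins had +0.11 in WASH and −1.58 in ELUTED, with 65 of 69 higher in WASH than in ELUTED, and proteasome subunits +0.26 and −1.50 (−1.08 without mouse 1), with 26 of 30. Of all 11974 genes, 30.8% were higher and 11.1% lower in WASH than in ELUTED, and of all 27022 probe sets 27.4% and 18.3%. More voltage-gated channels were lower than higher in that contrast. Of 48, 8 were higher and 16 lower in WASH than in ELUTED (5 and 17 without mouse 1). Of the 19 nuclear or antisense noncoding RNAs, 2 were higher and 9 lower.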

How the data were processed

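The deposited table holds 1 column for each of 18 arrays, with log2 values that the submitters' processing notes credit to RMA (version not given); the authors' design text names Mouse PrimeView arrays, while the probe set names and annotation are those of a mouse perfect-match design. Per the labels' protocols, 21 cycles of amplification began with 5 ng of RNA, and 8 µg of cDNA was labelled with biotin. Of 45141 probe sets, 104 controls were set aside. Those whose mean over the 18 arrays exceeded the 40th percentile (5.95) were kept, 27022, of which 19143 have 1 gene symbol, 411 several and 7468 no entry. A gene was represented by its probe set with the highest mean.

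WASH minus INPUT was taken within each mouse and its mean tested against 0 with limma 3.58.1 in R 4.3.3 (empirical Bayes, 2-sided, Benjamini-Hochberg over all 27022), which was also tested on simulated data. The genotype difference was the difference of these means over 6 mice. The preparations of a number come from the same animal, per the labels; deviations from group means correlated within mice 1, 2 and 3 at 0.30, 0.10 and 0.53, and mouse 2 more with another mouse (0.19). The number of arrays limits precision, and the mice are the only replicates. "Above the nonspecific controls" means above the highest of 23 such probe sets on that array.

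Genes named in the text are the 12 largest called differences in each direction (same sign in 3 of 3 mice and above the nonspecific controls where higher), the 3 largest in each direction of each list, short lists in full, the CPEB genes and housekeeping genes; others are said to be chosen after their values were seen. The comparison and the 32 lists were chosen with earlier results of these data known. Of these lists, 2 (small noncoding RNAs and mitochondrially encoded transcripts) had no gene on the array by its annotation. Alternatives changed the filter on dim probe sets, the scaling, the spread, the pairing and the mice used. The ± values are SDs over 3 mice.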

Additional observations from a re-analysis of the deposited data

How the results depend on the processing

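Counts of calls kept within 1.5 times of those reported under most alternatives, and the exceptions follow. Without a filter 9211 probe sets were lower in controls, and with the 60th percentile 2801 were lower, 160 at least 2-fold higher and 323 at least 2-fold lower, from fewer probe sets. Subtracting each mouse's median left 178 at least 2-fold higher. With only probe sets above the nonspecific controls on all 6 arrays, a setting chosen after seeing the data, 5843 were higher, 2474 lower, 43 at least 2-fold higher and 312 at least 2-fold lower. Leaving out each control mouse in turn gave 7042 to 8271 higher, 4166 to 4979 lower, 207 to 427 at least 2-fold higher (427 without mouse 1) and 513 to 644 at least 2-fold lower. Treating the arrays as unpaired, with no replicate block, gave 7882 higher and 4565 lower. In TgCPEB4∆4 mice 7375 were lower without a filter and 2391 with the 60th percentile, 3398 were higher and 2808 lower with no replicate block, and leaving out 1 mouse gave 4991 to 7402 higher and 3008 to 4211 lower, the fewest without mouse 2. The genotype difference stayed at 0 calls in the 10 alternatives run for it, with no replicate block and without any 1 mouse included (lowest adjusted p from 0.121 without TgCPEB4∆4 mouse 3 to 1).

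Of 1687 values of 124 genes under the alternatives, each by its brightest probe set, 1589 kept direction and side of the threshold, 80 lost their call, 8 gained one in the same direction and 10 changed sign. The signs that turned are of genes without a call as reported. Actb went to −0.076 when quantile-normalized again, −0.20 with arrays scaled to the same median and SD, and −0.049 with each mouse's median subtracted. H3f3b went to −0.013, −0.068 and −0.020 under those settings and −0.080 after cyclic loess. Gapdh went to −0.21 with the same median and SD, where it passed the test (adjusted p = 0.0454), −0.064 with the median subtracted, and ranged from −0.016 (without mouse 3) to 0.035 when 1 mouse was left out. The cause was not tested. Values near the nonspecific controls, in INPUT above all, limit what the dim genes can show.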

Other observations

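Of 9 host genes of small nucleolar RNAs, 3 (33.3%) were higher and 1 (11.1%) lower in the control mice. These shares were near the 37.1% and 12.9% of all genes. Snhg10 was higher in WASH by 0.64 ± 0.23 and Snhg8 by 0.22 ± 0.04, while Snhg16 was lower by 0.27 ± 0.05. The call of Snhg8 was lost without any 1 mouse (adjusted p = 0.0833 to 0.176), and that of Snhg16 without mouse 2 or mouse 3 (adjusted p = 0.0836 and 0.073). Gas5 stood at −0.23 in TgCPEB4∆4 mice, which did not pass the test there (adjusted p = 0.22), beside +0.23 ± 0.09 in controls, a call lost without mouse 2 or mouse 3 (adjusted p = 0.116 and 0.22).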
